A study of Homo sapiens with 36 samples.

Results

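The liver X receptor (LXR) ligands 1E5 and GW3965 were set against each other in MIA PaCa-2, an established line of human pancreatic ductal adenocarcinoma (PDAC). The labels call 1E5, a compound known here by its code name, an inverse agonist of LXR, and they call GW3965 an agonist. The comparison holds 6 libraries of the 36 in the series: 3 from MIA PaCa-2 cells given 1E5 at 10 µM for 48 h, and 3 from MIA PaCa-2 cells given GW3965 at the same dose and time. The 3 libraries of MIA PaCa-2 cells given the vehicle DMSO served to tell which of the ligands had moved a gene, since each ligand could differ from the other without both having acted. MIA PaCa-2 cells were grown in DMEM with serum and had no treatment other than ligand or vehicle, and RNA was taken from the whole population for stranded total RNA libraries. BxPC-3 and PANC-1, the other PDAC lines of the series, were used only to see whether the same ligand difference held there, and libraries of another compound, 3A4, entered the fits but are not compared. The model is 1 line at 1 dose and 1 time. The labels speak of biological replicates without naming separate cultures, and p-values therefore reflect only how far these libraries spread, which may be technical. In RNA from a whole population, fewer cells of a kind and less RNA per cell cannot be told apart.

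LXR alpha and beta, encoded by NR1H3 and NR1H2, are nuclear receptors for oxysterols. With an agonist they switch on genes that export cholesterol, such as ABCA1 and ABCG1, and the gene of SREBP1, SREBF1, which in turn drives the enzymes of fatty acid synthesis. An inverse agonist is a ligand that lowers a receptor's activity below its level without ligand. SREBP2, encoded by SREBF2, drives the enzymes of cholesterol synthesis. The integrated stress response is a separate programme in which phosphorylation of the translation factor eIF2 favours translation of ATF4, which raises genes for amino acid supply and, with DDIT3, for cell death or recovery.

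Library totals were 23675670 to 25503827 counts with 1E5, 2701393 to 13631719 with GW3965 and 3609582 to 10996848 with DMSO, so a weakly expressed gene rests on fewer counts with GW3965 and DMSO than with 1E5. Replicates 3 of GW3965 and of DMSO were the shallowest and stood apart from their groups on the second principal component, and counts of genes are therefore also given without both. Messenger RNAs encoded by mitochondrial DNA took 0.644% to 1.49% of the counts with 1E5, 4.39% to 5.12% with GW3965 and 5.65% to 6.18% with DMSO. The line's identity held: KRT8, KRT18, VIM and ZEB1 were present in every library, while CDKN2A, CDKN2B and MTAP, neighbours in a region that this line is known to have lost, had no count in any of the 9. EPCAM had 3 counts over the 1E5 libraries and none over the GW3965 or DMSO libraries, so this epithelial marker did not check the label. Markers of leukocytes, endothelium, stroma, acinar, islet and liver cells (16 genes) summed to 14.7 to 38.5 CPM (counts scaled to a library total of 1000000) with 1E5, 224 to 234 with GW3965 and 279 to 299.8 with DMSO. Most of that was the collagen gene COL1A2; without it the sums were 5.18 to 9.12, 17.8 to 30.3 and 44.1 to 61.2 CPM, and PTPRC, PECAM1, VWF, LUM, DCN, PRSS1, CPA1, INS and GCG were at 0 in all 9 libraries.

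1E5 and GW3965 left MIA PaCa-2 cells with widely different transcriptomes. Of 16254 genes tested, 6505 (40.0%) differed between 1E5 and GW3965 by edgeR's quasi-likelihood test at an adjusted p under 0.05, the threshold for a gene to be called throughout. With 1E5, 3188 (19.6%) were higher and 3317 (20.4%) lower, and 3626 of the called genes differed by at least 2-fold. Without the shallowest GW3965 and DMSO libraries 5755 were called, and with every library thinned to the depth of the shallowest 5642 were. Against the vehicle, 7635 genes (47.0%) were called for 1E5, and 85 (0.523%) for GW3965. Levels below are CPM on TMM-scaled totals, and differences are log2 fold changes with their standard error (SE).

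Called genes were sorted by what each ligand did relative to DMSO. A gene was opposed if it was called between the ligands and each ligand was called against DMSO, in opposite directions. It was moved by 1E5 alone if 1E5 was called against DMSO while GW3965 was not, and the 95% interval of the GW3965 difference lay within 2-fold either way; GW3965 alone was defined in the mirror way, and genes called against DMSO in 1 direction for both ligands moved the same way. By these rules 6 genes were opposed, 4389 (67.5% of those called) were moved by 1E5 alone, 10 by GW3965 alone and 44 the same way by both, and 2056 stayed unresolved. Both comparisons with the vehicle share its libraries, so the classes sort genes and are no independent tests. They also depend on how many GW3965 differences are called: leaving out 1 DMSO library lowered the 85 calls to 32, 16 or 29 (replicates 1, 2 and 3), leaving out GW3965 replicate 1 or 2 to 24 or 36 and a 1E5 library to 49 to 55, and thinning every library to the shallowest left 65. The plot of both differences from DMSO shows the 1E5 alone genes as a vertical band about a GW3965 difference of 0, with opposed genes in the corners where the signs differ.

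**Figure D1:**
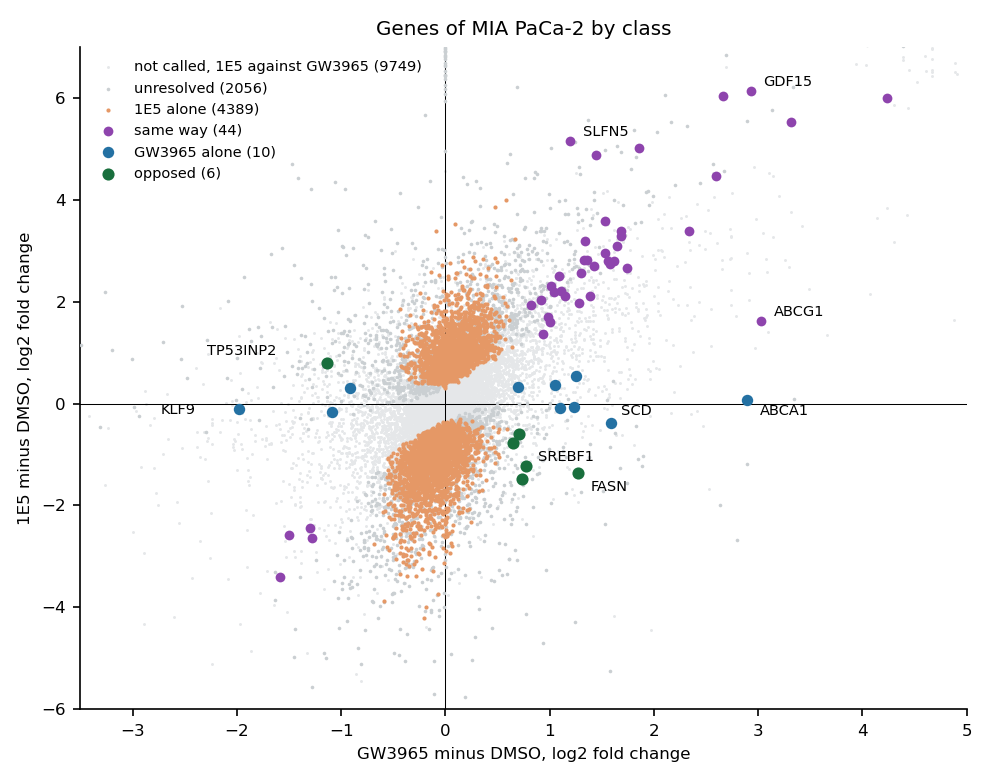
Each point is 1 of the genes tested in MIA PaCa-2, placed by its log2 fold change of GW3965 against DMSO (x) and of 1E5 against DMSO (y) and coloured by class, with the number of genes of each class in the key; both axes share the DMSO libraries, and 414 genes, 4 of the same way class among them, lie beyond the axes. The 6 opposed genes (green) lie where the signs differ, ABCA1, SCD and KLF9 near a 1E5 difference of 0, and the 44 same way genes mostly above the diagonal.

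The opposed genes were mostly lipid enzymes and their regulator: FASN, FDPS, SREBF1, FDFT1 and ACADVL were below the vehicle with 1E5 and above it with GW3965, and TP53INP2 was the reverse. FASN (ENSG00000169710; GRCh38, chromosome 17, 82078333 to 82098332, minus strand), which encodes the synthase of palmitate, had 186, 226 and 250.01 CPM in the 1E5 libraries, against 1192, 1631 and 1292 CPM with GW3965 and 632, 597 and 478 CPM with DMSO. Every vehicle library lay between the ligands, whose own libraries were far apart. FASN was 6.22-fold lower with 1E5 than with GW3965 (-2.64 ± 0.16 SE, edgeR adjusted p = 1.47e-06), with -1.37 for 1E5 against DMSO (adjusted p = 3.26e-05) and 1.27 for GW3965 against DMSO (adjusted p = 0.00632). It was opposed in each of the 18 alternatives in which the class was recomputed, the only gene of the 6 for which this was so.

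SREBF1 (ENSG00000072310; chromosome 17, 17810399 to 17837002, minus strand), the gene of SREBP1 and a direct target of LXR, had 62.5, 72.1 and 66.4 CPM with 1E5, against 245, 292 and 271 CPM with GW3965 and 162, 169.5 and 141 CPM with DMSO. The 3 groups again did not overlap, and the level with 1E5 was 4.02-fold below that with GW3965 (-2.01 ± 0.13 SE, edgeR adjusted p = 1.47e-06). Relative to DMSO it was -1.24 with 1E5 and 0.77 with GW3965 (adjusted p = 1.19e-05 and 0.0219). SREBF1 stayed opposed in 11 of 18 alternatives.

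FDPS (ENSG00000160752; chromosome 1, 155308748 to 155320666, plus strand) makes farnesyl diphosphate, and FDFT1 turns it into squalene, the committed step towards sterols. FDPS had 66.3, 68.9 and 64.7 CPM with 1E5, against 264, 304 and 354 CPM with GW3965 and 195, 174 and 186 CPM with DMSO. FDPS was 4.61-fold lower with 1E5 than with GW3965 (log2 -2.20 ± 0.14 SE, edgeR adjusted p = 1.97e-06), and its DMSO libraries lay between the ligands. The pattern was alike in FDFT1, which had 82, 81.8 and 86.6 CPM with 1E5, against 221, 225 and 225 CPM with GW3965 and 143, 129 and 157 CPM with DMSO. FDFT1 was 2.68-fold lower with 1E5 than with GW3965 (log2 -1.42 ± 0.12 SE, edgeR adjusted p = 6.75e-06). For both genes the call of GW3965 against DMSO was near the threshold, at adjusted p = 0.049 for FDPS and 0.0321 for FDFT1, and each was opposed in 5 of the alternatives.

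ACADVL (ENSG00000072778; chromosome 17, 7217125 to 7225273, plus strand) encodes the mitochondrial enzyme that starts the oxidation of very long chain fatty acids, and so stands on the breakdown side of fatty acid metabolism. It had 144, 161 and 170.2 CPM with 1E5, against 379, 364 and 441 CPM with GW3965 and 251, 223 and 251 CPM with DMSO. ACADVL was 2.49-fold lower with 1E5 than with GW3965 (log2 -1.31 ± 0.13 SE, edgeR adjusted p = 1.85e-05). TP53INP2 (ENSG00000078804; chromosome 20, 34704290 to 34713439, plus strand), which encodes an autophagy protein that binds LC3, was the opposed gene with 1E5 on top. Its level was 26.8, 33.6 and 39.5 CPM with 1E5, against 8.3, 10.2 and 6.91 CPM with GW3965 and 19.2, 20.8 and 17.1 CPM with DMSO, 3.83-fold higher with 1E5 than with GW3965 (1.94 ± 0.20 SE, edgeR adjusted p = 2.42e-05). For ACADVL and TP53INP2 the edgeR adjusted p of GW3965 against DMSO was 0.0339 and 0.0319, and each was opposed in 7 of 18 alternatives. In the full set of libraries all 6 genes kept the groups apart, with DMSO in the middle.

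The count of opposed genes rested on single libraries. It was 1 (FASN) without any 1 of the DMSO libraries, 2 without 1E5 replicate 2 or GW3965 replicate 1, 3 without GW3965 replicate 3, 5 without GW3965 replicate 2 (FASN and 4 genes not among the 6), 2 without both shallowest libraries and 14 by DESeq2. A wider view that needs no call against DMSO asked for genes called between the ligands in which all 3 DMSO libraries lay between all 1E5 and all GW3965 libraries. There were 150 such genes, 84 with 1E5 lowest and 66 with 1E5 highest; in all genes tested, called or not, this order was met by 89 (0.548%) and 68 (0.418%). The set with 1E5 lowest held the sterol genes MVD, LSS, DHCR7, SREBF2 and INSIG1, the fatty acid genes ACACA, SLC25A1 and PNPLA3, and LPIN1, MYLIP and LPCAT3, all named after their values were seen. Fewer libraries make this order easier to meet, and the count was 254 without GW3965 replicate 1, 527 without replicate 2, 257 without replicate 3, 278, 272 and 493 without DMSO replicates 1, 2 and 3, and 627 without both shallowest libraries.

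**Figure D2:**
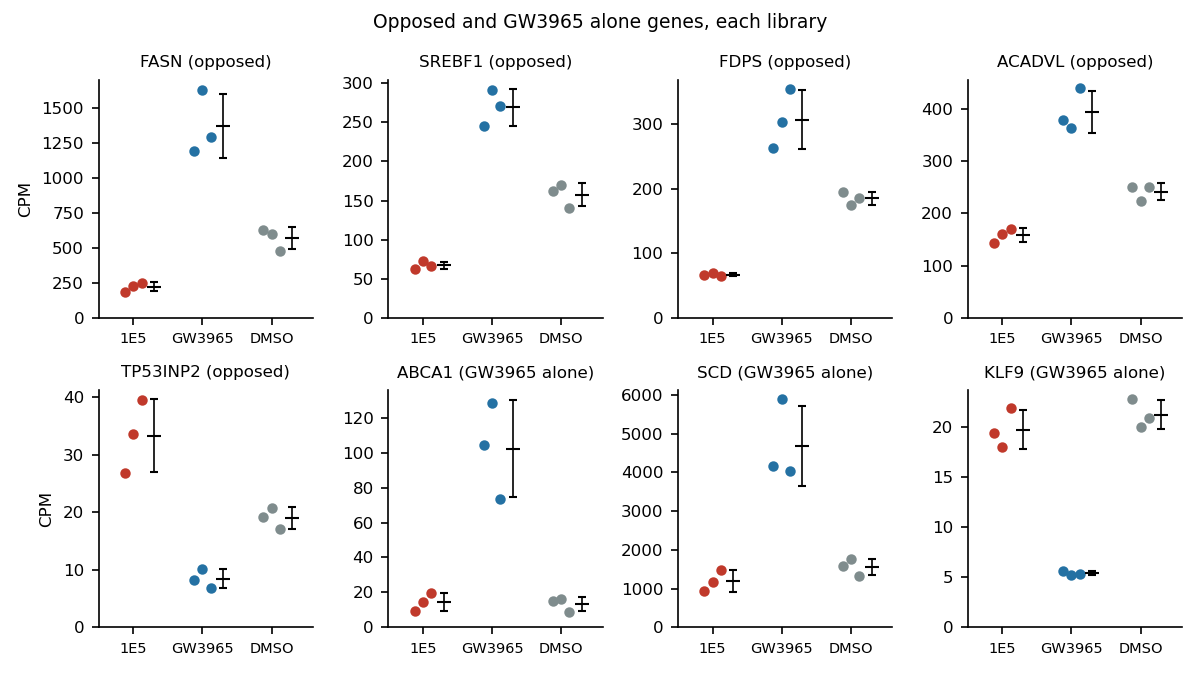
Level of 8 lipid-related and regulatory genes in CPM (y, linear from 0) in each MIA PaCa-2 library with 1E5, GW3965 and DMSO (x); bars beside the points are mean ± SD of 3 libraries, and the class stands in each panel's title. In FASN, SREBF1, FDPS, ACADVL and TP53INP2 the DMSO libraries lie between the ligands, and in ABCA1, SCD and KLF9 the GW3965 libraries alone stand apart from the others.

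Among the genes moved by GW3965 alone, 1E5 staying near the vehicle, were the LXR targets ABCA1 and SCD. ABCA1 (ENSG00000165029; chromosome 9, 104781002 to 104928237, minus strand), which exports cholesterol to apolipoprotein A-I, had 9.29, 14.6 and 19.4 CPM with 1E5, against 105, 129 and 73.3 CPM with GW3965 and 15, 16.5 and 8.99 CPM with DMSO. The 1E5 and DMSO libraries were intermingled, with 0.07 between them (edgeR adjusted p = 0.885; 95% interval -0.63 to 0.77), and 1E5 was 7.11-fold below GW3965 (-2.83 ± 0.31 SE, adjusted p = 4.61e-05). SCD (ENSG00000099194; chromosome 10, 100347124 to 100364834, plus strand), the desaturase that makes oleate, had 936, 1169.9 and 1480.3 CPM with 1E5, against 4150.1, 5881 and 4024 CPM with GW3965 and 1594, 1756 and 1331 CPM with DMSO. It was 3.92-fold lower with 1E5 than with GW3965 (-1.97 ± 0.20 SE, edgeR adjusted p = 2.2e-05). Against DMSO 1E5 gave -0.38 (edgeR adjusted p = 0.127). Without 1E5 replicate 3, the highest of the 1E5 libraries, SCD was classed as opposed.

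The other genes lower with 1E5 in this class were enzymes of acyl-CoA and serine metabolism. ACSS2, which makes acetyl-CoA from acetate, averaged 43 ± 0.813 CPM with 1E5, 106 ± 24.7 CPM with GW3965 and 44.8 ± 7.54 CPM with DMSO (SD, n = 3 each; -1.29 ± 0.22 SE between the ligands; edgeR adjusted p = 0.000626). ACSL1, which activates long chain fatty acids, averaged 39.7 ± 4.71, 91 ± 1.1 and 42.2 ± 9.23 CPM in the same groups (-1.20 ± 0.16 SE, edgeR adjusted p = 0.000149). PHGDH, the entry enzyme of serine synthesis, averaged 161 ± 15.4, 263 ± 70.1 and 111 ± 14.6 CPM (-0.72 ± 0.21 SE, edgeR adjusted p = 0.0176), a call lost without 1E5 replicate 1 or 2 or GW3965 replicate 1 or 2 (adjusted p = 0.0508 to 0.0822). ACSL3 and SHMT2 completed the 7, with -0.69 and -0.37 between the ligands, and were named after their values were seen.

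The other 3 genes of the class were the reverse, low with GW3965 and near the vehicle with 1E5. KLF9, a zinc finger transcription factor, had 19.4, 18 and 21.9 CPM with 1E5, against 5.61, 5.2 and 5.37 CPM with GW3965 and 22.9, 19.98 and 20.9 CPM with DMSO. KLF9 was 3.67-fold higher with 1E5 than with GW3965 (log2 1.88 ± 0.19 SE, edgeR adjusted p = 1.98e-05). KLF9 kept the class in all 18 alternatives, ABCA1 and SCD in 16 of them and ACSL1 in 15. The other members kept it less often, GBE1 in 8, ACSS2 in 7, ACSL3 in 6, ARSK and PHGDH in 3 each and SHMT2 in 1. GBE1, the glycogen branching enzyme, averaged 108 ± 0.454 CPM with 1E5, 56.5 ± 11.8 CPM with GW3965 and 121 ± 10.4 CPM with DMSO (0.92 ± 0.19 SE, edgeR adjusted p = 0.00243). ARSK, a lysosomal sulfatase, averaged 22.8 ± 2.55, 9.79 ± 0.764 and 18.3 ± 0.743 CPM (1.23 ± 0.17 SE, edgeR adjusted p = 0.000151). All its 1E5 libraries lay above all DMSO libraries, and these above all GW3965 libraries, so ARSK also met the order of the wider view above. The class as a whole held 2 genes without DMSO replicate 2, 3 without 1E5 replicate 1, 4 without 1E5 replicate 2 or DMSO replicate 1, 5 without 1E5 replicate 3, GW3965 replicate 1 or 3 or DMSO replicate 3, and 6 without both shallowest libraries.

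The sterol exporter ABCG1 departed from ABCA1: both ligands raised it above the vehicle, GW3965 further. It had 27.2, 36.1 and 68.5 CPM with 1E5, against 111, 145 and 90.5 CPM with GW3965 and 17.1, 11.7 and 14.2 CPM with DMSO. The 1E5 libraries lay above every DMSO library and below every GW3965 library, with 1.62 for 1E5 against DMSO (edgeR adjusted p = 0.00419) and -1.40 ± 0.36 SE between the ligands (adjusted p = 0.00859). LPCAT3, which places polyunsaturated fatty acids into phospholipids, had 19.5, 26.5 and 18.1 CPM with 1E5, against 98.9, 126 and 100.1 CPM with GW3965 and 53.8, 69.6 and 71.1 CPM with DMSO. LPCAT3 was 5.09-fold lower with 1E5 than with GW3965 (log2 -2.35 ± 0.20 SE, edgeR adjusted p = 1.03e-05). MYLIP, which tags the LDL receptor for breakdown, had 7.48, 7.35 and 9.66 CPM with 1E5, against 19.3, 21.6 and 18.4 CPM with GW3965 and 12.2, 10.8 and 11.9 CPM with DMSO (-1.28 ± 0.18 SE, edgeR adjusted p = 0.000207). Both had DMSO between the ligands in every library and were unresolved, since GW3965 against DMSO was not called (adjusted p = 0.209 and 0.142) while its interval reached past 2-fold.

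Of the receptors, NR1H2 averaged 60.4 ± 9.15 CPM with 1E5, 39.5 ± 1.69 CPM with GW3965 and 41 ± 5.82 CPM with DMSO (0.61 ± 0.15 SE between the ligands; edgeR adjusted p = 0.00709), a call that was lost in libraries thinned to equal depth (adjusted p = 0.0545). NR1H3 had 2.58, 1.67 and 3.13 CPM with 1E5, against 6.73, 2.95 and 8.82 CPM with GW3965 and 3.38, 4.38 and 4.93 CPM with DMSO; the ligands overlapped, and the adjusted p of 0.0272 in edgeR rose to 0.0607 to 0.112 in 8 alternatives. Over the 14 LXR targets tested, 3 were higher and 7 lower with 1E5 than with GW3965, with a median of -0.71 against 0.05 for all genes. Of all genes 19.6% were higher and 20.4% lower, the shares against which every list below is to be read. The higher share of the LXR targets was near that of all genes. The 3 higher members were SMPDL3A, TTC39B and ABCC3, at 2.28, 1.62 and 1.05. Against DMSO the median of the LXR targets was -0.13 with 1E5 and 0.55 with GW3965. With 1E5, 4 were called higher and 4 lower than DMSO, near the 23.6% and 23.4% of all genes. With GW3965, 4 were called higher and none lower (0.418% and 0.105% of all genes). Among 16 genes of lipid droplets and fatty acid oxidation, 2 were higher (HADHB among them), a share below that of all genes, and 6 lower (median -0.41). The lower ones included the droplet coat gene PLIN3 (-1.52 ± 0.24 SE, edgeR adjusted p = 0.000437) and ANGPTL4, a secreted inhibitor of lipoprotein lipase (-1.25 ± 0.32 SE, adjusted p = 0.00857).

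Sterol synthesis was lower with 1E5 beyond the opposed genes. Of 22 genes of cholesterol synthesis and uptake, 18 were lower with 1E5 than with GW3965 and none higher, where 20.4% of all genes were lower; the median was -1.35. By class 2 of them were opposed, 10 were moved by 1E5 alone and 6 unresolved, and in 8 every DMSO library lay between the ligands. Against DMSO the median of the list was -0.84 with 1E5 and 0.57 with GW3965, so both ligands entered the gap. With 1E5, 16 were called lower and 2 higher than DMSO (23.4% and 23.6% of all genes). With GW3965, 2 were called higher and none lower (0.418% and 0.105% of all genes). LSS, which closes the sterol rings to lanosterol, had 48.7, 60.1 and 42.2 CPM with 1E5, against 199, 221 and 203 CPM with GW3965 and 139.7, 179.9 and 170.01 CPM with DMSO. LSS was 4.12-fold lower with 1E5 than with GW3965 (log2 -2.04 ± 0.15 SE, edgeR adjusted p = 3.27e-06), and its DMSO libraries lay between the ligands. EBP, a sterol isomerase, had 10.9, 11 and 12.7 CPM with 1E5, against 98.7, 65 and 98.6 CPM with GW3965 and 40.1, 51.6 and 77.2 CPM with DMSO. EBP was 7.52-fold lower with 1E5 than with GW3965 (log2 -2.91 ± 0.23 SE, edgeR adjusted p = 6.68e-06). In EBP the GW3965 and DMSO libraries overlapped, and the 1E5 libraries were below both. A sterol response element searched as TCACNCCAC stood in 1 of 22 promoter windows of the list (RefSeq, GRCh38.p14, both strands) and in 1.13% of all windows. The 4 members not called were SQLE, CYP51A1, MSMO1 and SC5D, at -0.37 to 0.41.

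Of 19 genes of fatty acid synthesis, 11 were lower and 3 higher with 1E5 (median -0.69), where 20.4% and 19.6% of all genes were. The higher members were ME1, GPAM and FADS1, at 1.01, 0.76 and 0.45. Against DMSO the median of the list was -0.47 with 1E5 and 0.55 with GW3965, so here too both ligands entered the gap. With 1E5, 8 were called lower and 4 higher than DMSO (23.4% and 23.6% of all genes). With GW3965, 4 were called higher and none lower (0.418% and 0.105% of all genes). FADS2, a desaturase of polyunsaturated fatty acids, had 6.64, 10.6 and 12.9 CPM with 1E5, against 45.1, 35.2 and 36.8 CPM with GW3965 and 34, 37.7 and 39.7 CPM with DMSO. FADS2 was 3.88-fold lower with 1E5 than with GW3965 (log2 -1.96 ± 0.25 SE, edgeR adjusted p = 0.000108). GW3965 and DMSO libraries of FADS2 overlapped. Within this pathway FASN was opposed, SCD was moved by GW3965 alone and FADS2 by 1E5 alone, and the classes of different genes were not tested against each other.

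Many genes of the integrated stress response were above DMSO with both ligands, and 10 of 20 were in the same way class, 4 unresolved and 6 not called between the ligands. Of the 44 same way genes, 40 were above DMSO with both ligands, and in 39 of these 1E5 went further, ABCG1 being the exception; in the 4 below DMSO 1E5 also went further. Of 20 genes of the integrated stress response, 14 were higher with 1E5 than with GW3965 and none lower (median 1.26), where 19.6% of all genes were higher. The same list had 14 members higher with GW3965 than with DMSO, where 0.418% of all genes were, and 19 higher with 1E5 than with DMSO (23.6% of all genes). CEBPB, a transcription factor of this response, had 239, 233 and 237 CPM with 1E5, against 97.1, 90.2 and 77.5 CPM with GW3965 and 44.3, 32.7 and 48.7 CPM with DMSO. The steps between the groups did not overlap; 1E5 was 2.68-fold above GW3965 (1.42 ± 0.15 SE, edgeR adjusted p = 2.96e-05), and GW3965 was 1.09 above DMSO (adjusted p = 0.0127).

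ATF3, an early transcription factor of the response, had 142, 71.6 and 93.3 CPM with 1E5, against 13.5, 10.6 and 7.29 CPM with GW3965 and 4.99, 1.9 and 3.48 CPM with DMSO. ATF3 was 9.59-fold higher with 1E5 than with GW3965 (log2 3.26 ± 0.33 SE, edgeR adjusted p = 2.74e-05). PPP1R15A, the subunit that directs a phosphatase to eIF2, had 290.4, 242 and 239 CPM with 1E5, against 58.8, 57.7 and 44.5 CPM with GW3965 and 41.2, 33.5 and 22.3 CPM with DMSO. PPP1R15A was 4.76-fold higher with 1E5 than with GW3965 (log2 2.25 ± 0.19 SE, edgeR adjusted p = 9.86e-06). Both were unresolved: GW3965 against DMSO was not called for either, and its interval reached past 2-fold. GDF15, a secreted stress cytokine, had 167, 169.5 and 510.2 CPM with 1E5, against 32.7, 30.2 and 28 CPM with GW3965 and 6.12, 3.71 and 1.45 CPM with DMSO. GDF15 was 9.29-fold higher with 1E5 than with GW3965 (log2 3.21 ± 0.44 SE, edgeR adjusted p = 0.000215). Replicate 3 of 1E5 stood far above the other 1E5 libraries, and the lowest 1E5 library still exceeded every GW3965 library. The regulator itself, ATF4, was not called between the ligands, with 760.1, 666 and 748 CPM with 1E5, against 599.8, 649 and 499.5 CPM with GW3965 and 255, 218 and 236 CPM with DMSO (0.31 ± 0.13 SE, edgeR adjusted p = 0.0748), while both ligands were called above DMSO (adjusted p = 2.68e-06 for 1E5 and 0.00235 for GW3965). TRIB3, an ATF4 target, was at 0.08 between the ligands and not called. Both were named after their values were seen.

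Genes of amino acid supply were more often higher than lower with 1E5. Of 24 genes for amino acid synthesis, transport and tRNA charging, 11 were higher and 5 lower with 1E5 than with GW3965 (median 0.42), while against DMSO 19 were higher with 1E5 and 9 with GW3965. The 5 lower members were PHGDH, SHMT2, PYCR1, ALDH18A1 and WARS, enzymes of serine, glycine and proline synthesis and a tRNA synthetase. A share of 5 in 24 lower is near the 20.4% of all genes, and it was 1 without GW3965 replicate 2, 2 without 1E5 replicate 2 or GW3965 replicate 1 and 3 without 1E5 replicate 1. Transporters were on the higher side. SLC3A2, the heavy chain of several amino acid exchangers, averaged 271 ± 51.4 CPM with 1E5, 125 ± 27.4 CPM with GW3965 and 66.2 ± 7.52 CPM with DMSO (1.11 ± 0.18 SE between the ligands; edgeR adjusted p = 0.000456). SLC38A2, a carrier of small neutral amino acids, averaged 1289 ± 59.5, 554 ± 96.3 and 424 ± 94.3 CPM (1.22 ± 0.21 SE, edgeR adjusted p = 0.000651). GARS, the glycyl-tRNA synthetase, had 1341, 1245 and 1351 CPM with 1E5, against 538, 699.6 and 379 CPM with GW3965 and 297, 267 and 236 CPM with DMSO. GARS was 2.43-fold higher with 1E5 than with GW3965 (log2 1.28 ± 0.18 SE, edgeR adjusted p = 0.000199).

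ATF4 and its partners bind a composite C/EBP and ATF element. Its core was searched as TGATGNAA on both strands of promoter windows from RefSeq (GRCh38.p14, from 250 bases before to 50 bases after each start), which exist for 89 of the 118 named genes. The core stood in 3.62% of all 35116 windows, in 12 of 32 windows of the amino acid list and in 5 of 29 of the integrated stress response list. The 250 bases before the start of GARS are shown as an example from the genes that moved together, at chr7:30594628-30594877, plus strand. Capitals mark the core, read on the opposite strand and starting 33 bases before the start. A match is a description of these letters and not a bound site.
GARS: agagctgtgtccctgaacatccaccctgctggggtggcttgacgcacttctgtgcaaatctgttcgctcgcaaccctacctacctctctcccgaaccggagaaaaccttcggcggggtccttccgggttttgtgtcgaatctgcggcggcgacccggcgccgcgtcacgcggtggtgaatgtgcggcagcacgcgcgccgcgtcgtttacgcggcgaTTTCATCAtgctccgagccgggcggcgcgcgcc

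**Figure D3:**
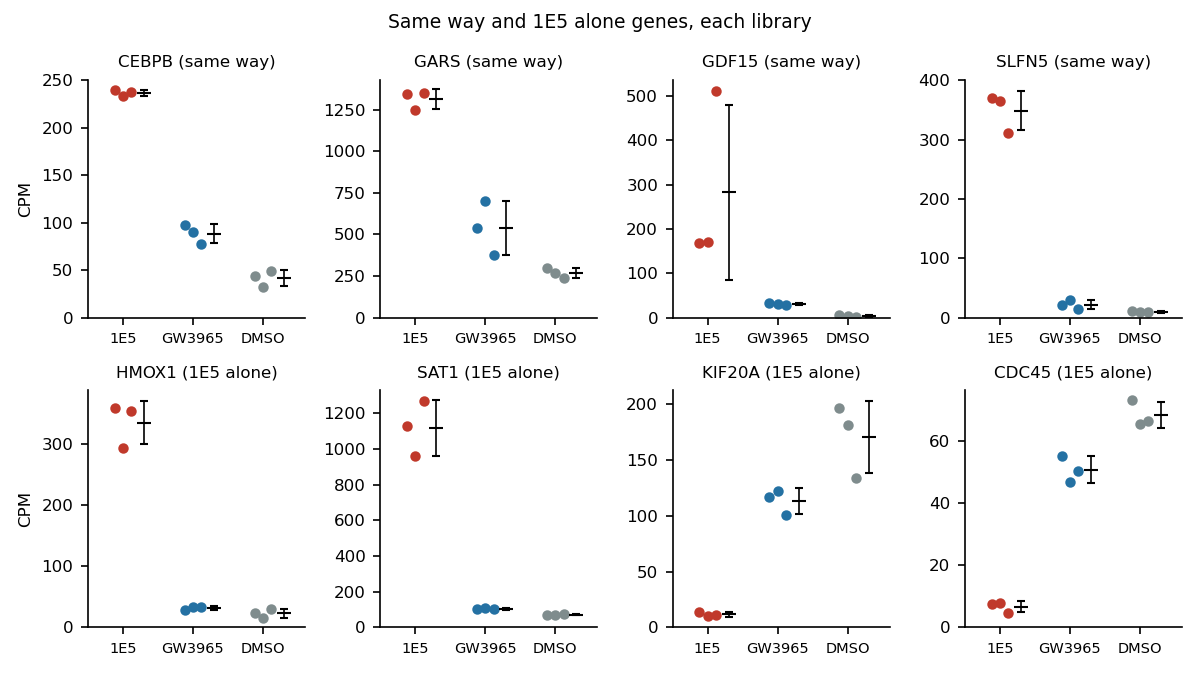
Level of 8 genes in CPM (y, linear from 0) in each MIA PaCa-2 library with 1E5, GW3965 and DMSO (x); bars beside the points are mean ± SD of 3 libraries, and the class stands in each panel's title. CEBPB, GARS, GDF15 and SLFN5 stand highest with 1E5 and lowest with DMSO. HMOX1 and SAT1 are far higher with 1E5 than in the other groups. KIF20A and CDC45 are lowest with 1E5 and highest with DMSO.

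The largest same way differences were in other genes. SLFN5, a member of the schlafen family, had 369, 366 and 310.3 CPM with 1E5, against 20.6, 29.8 and 15 CPM with GW3965 and 11.4, 9.04 and 8.99 CPM with DMSO. SLFN5 was 15.4-fold higher with 1E5 than with GW3965 (log2 3.95 ± 0.20 SE, edgeR adjusted p = 5.57e-07). RHOU, a small GTPase, and UNC5B, a netrin receptor, averaged 117 ± 5.65 and 248 ± 75 CPM with 1E5, 10.3 ± 3.54 and 23 ± 9.55 CPM with GW3965 and 3.89 ± 1.56 and 4.0 ± 1.42 CPM with DMSO (edgeR adjusted p = 3.27e-06 and 2.42e-05 between the ligands). SULF2, which trims sulfate from heparan sulfate, had 20.6, 22.3 and 17.9 CPM with 1E5, against 2.02, 2.64 and 0 CPM with GW3965, and no count in any DMSO library. Below DMSO with both ligands were OSR1, SCNN1A, DEPP1 and TUBB6, with -1.83 ± 0.25, -1.36 ± 0.22, -1.14 ± 0.20 and -1.08 ± 0.28 SE between the ligands (edgeR adjusted p = 0.00017, 0.000503, 0.000676 and 0.0097). The call of TUBB6, a beta tubulin, was lost without both shallowest libraries (adjusted p = 0.0522). The class itself shrank to 4 genes without DMSO replicate 2, 9 and 10 without GW3965 replicates 2 and 1, 15 and 13 without DMSO replicates 1 and 3 and 25 to 28 without any 1 of the 1E5 libraries, was 33 without both shallowest libraries and 143 by DESeq2.

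Genes moved by 1E5 alone, as defined by the 2-fold bound, were 67.5% of those called, 1939 higher and 2450 lower with 1E5. Their median size between the ligands was 1.92-fold, so the bound leaves room for a GW3965 difference of like size. With the GW3965 interval held within 1.5-fold the class had 2108 genes. Cell division stood on the lower side. All 23 mitosis genes tested were lower with 1E5 than with GW3965 (median -1.39), 22 of them by 1E5 alone, where 20.4% of all genes were lower. KIF20A, a kinesin of cytokinesis, had 14, 10.2 and 10.7 CPM with 1E5, against 116, 123 and 101 CPM with GW3965 and 197, 181 and 134 CPM with DMSO. KIF20A was 9.76-fold lower with 1E5 than with GW3965 (log2 -3.29 ± 0.17 SE, edgeR adjusted p = 5.57e-07), and the groups did not overlap. AURKB, a kinase that corrects chromosome attachment, had 8.59, 9.02 and 10.5 CPM with 1E5, against 74.7, 55.1 and 67.9 CPM with GW3965 and 83.1, 76.3 and 80.1 CPM with DMSO. AURKB was 6.99-fold lower with 1E5 than with GW3965 (log2 -2.81 ± 0.15 SE, edgeR adjusted p = 5.57e-07). CCNB2, a B cyclin of entry into mitosis, had 34.4, 30.9 and 29.7 CPM with 1E5, against 106, 102 and 102 CPM with GW3965 and 119.6, 128 and 118 CPM with DMSO. CCNB2 was 3.27-fold lower with 1E5 than with GW3965 (log2 -1.71 ± 0.11 SE, edgeR adjusted p = 1.97e-06). In each of these the 1E5 libraries lay far below the others, and the GW3965 libraries lay below the DMSO ones without a call. For GW3965 against DMSO the median of the mitosis list was -0.305, with no member called, and that of all genes -0.0014.

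Many genes of late cell cycle are known to carry a cell cycle homology region, through which the DREAM complex holds them down in cells that do not divide. Its core, searched as TTTGAA on both strands, stood in 15.2% of all promoter windows and in 12 of 21 windows of the mitosis list. The 250 bases before the start of CCNB2 are shown for a mitosis gene that fell, at chr15:59104896-59105145, plus strand, with the core in capitals 29 bases before the start on the same strand. The window is read as letters only.
CCNB2: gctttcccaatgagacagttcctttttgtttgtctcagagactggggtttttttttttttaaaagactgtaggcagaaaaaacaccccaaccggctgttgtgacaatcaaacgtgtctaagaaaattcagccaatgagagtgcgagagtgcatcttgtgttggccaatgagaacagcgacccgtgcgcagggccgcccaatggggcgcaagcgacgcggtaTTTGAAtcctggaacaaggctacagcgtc

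DNA replication and nucleotide supply had 25 of 27 genes lower with 1E5 and none higher (median -1.52). CDC45, part of the replicative helicase, had 7.6, 7.69 and 4.66 CPM with 1E5, against 55.2, 46.6 and 50.3 CPM with GW3965 and 72.9, 65.5 and 66.1 CPM with DMSO. CDC45 was 7.6-fold lower with 1E5 than with GW3965 (log2 -2.93 ± 0.18 SE, edgeR adjusted p = 1.47e-06). TYMS, which makes thymidylate, averaged 38.3 ± 4.58 CPM with 1E5, 166 ± 14.9 CPM with GW3965 and 210.2 ± 3.57 CPM with DMSO (-2.11 ± 0.14 SE, edgeR adjusted p = 1.97e-06), and TK1, thymidine kinase, averaged 11.2 ± 2.83, 75.9 ± 8.54 and 98.6 ± 10.2 CPM (-2.76 ± 0.18 SE, adjusted p = 2.09e-06). The 1E5 libraries of all of them stood apart from the rest. For GW3965 against DMSO the median of this list was -0.428, with no member called, and that of all genes -0.0014. Homologous recombination and Fanconi repair had 9 of 15 genes lower and 1 (PALB2) higher (median -0.82), with RAD51AP1, RAD54L and FANCG at -1.95 ± 0.23, -1.81 ± 0.27 and -1.30 ± 0.18 SE (edgeR adjusted p = 6.61e-05, 0.000294 and 0.0002).

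Of 13 CDK inhibitors, G1 cyclins and E2F genes 3 were higher with 1E5 and 7 lower (median -0.82). Of all genes 19.6% were higher and 20.4% lower, so the higher share was near that of all genes. The higher ones were CDKN1A, CDKN1B and CCND2. CDKN1A, which encodes the inhibitor p21, had 71.2, 60.4 and 49 CPM with 1E5, against 8.97, 8.15 and 6.91 CPM with GW3965 and 5.79, 3.04 and 2.32 CPM with DMSO. CDKN1A was 7.43-fold higher with 1E5 than with GW3965 (log2 2.89 ± 0.28 SE, edgeR adjusted p = 1.99e-05). CCND2, cyclin D2, had 74.3, 76.6 and 67.9 CPM with 1E5, against 2.47, 5.35 and 6.52 CPM with GW3965 and 1.29, 1.43 and 0 CPM with DMSO. CCND2 was 15.4-fold higher with 1E5 than with GW3965 (log2 3.95 ± 0.38 SE, edgeR adjusted p = 1.85e-05). For both genes every 1E5 library lay far above every GW3965 library. E2F1, which drives entry into S phase, had 10.7, 14.1 and 8.24 CPM with 1E5, against 65.9, 40.5 and 39.9 CPM with GW3965 and 71.8, 68.3 and 67.3 CPM with DMSO. E2F1 was 4.42-fold lower with 1E5 than with GW3965 (log2 -2.14 ± 0.23 SE, edgeR adjusted p = 3.32e-05).

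Of 15 p53 targets 11 were higher with 1E5 and none lower (median 1.15). MDM2, the ligase of p53, had 99, 122 and 64.4 CPM with 1E5, against 16.4, 20.6 and 8.44 CPM with GW3965 and 18.8, 17 and 13.1 CPM with DMSO. MDM2 was 6.0-fold higher with 1E5 than with GW3965 (log2 2.59 ± 0.32 SE, edgeR adjusted p = 0.000103). TNFRSF10B, a death receptor for TRAIL that DDIT3 is also known to raise, averaged 379 ± 28.9 CPM with 1E5, 152 ± 13.4 CPM with GW3965 and 109.8 ± 9.04 CPM with DMSO (1.31 ± 0.12 SE, edgeR adjusted p = 1.22e-05). SESN2, CDKN1A and BBC3 of this list also belong to other lists here, so the counts overlap. Of 15 BCL2 family genes 7 were higher and 2 lower (median 0.94), where 19.6% and 20.4% of all genes were. Guardians against death and promoters of it were both among the higher ones: BCL2L1 averaged 228 ± 14.6 CPM with 1E5, 58.4 ± 11.8 CPM with GW3965 and 54.8 ± 8.65 CPM with DMSO (1.96 ± 0.16 SE, edgeR adjusted p = 6.75e-06), MCL1 was at 0.94 ± 0.15 SE (adjusted p = 0.000333), and the killers BBC3, PMAIP1, HRK and BCL2L11 were called higher too. The lower ones were BAD and BID, the second at -0.79 ± 0.14 SE (edgeR adjusted p = 0.000844).

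The antioxidant gene HMOX1 was moved by 1E5 alone. HMOX1, haem oxygenase, had 358, 293 and 353 CPM with 1E5, against 28, 33.8 and 34.1 CPM with GW3965 and 23.3, 16.2 and 30.8 CPM with DMSO. HMOX1 was 10.5-fold higher with 1E5 than with GW3965 (log2 3.39 ± 0.20 SE, edgeR adjusted p = 1.47e-06). Its GW3965 and DMSO libraries overlapped, and all 1E5 libraries were far above both. Of 19 NRF2 targets 10 were higher and 5 lower with 1E5, where 19.6% and 20.4% of all genes were (median 1.01). GCLC, the catalytic subunit of glutathione synthesis, averaged 137 ± 15.5 CPM with 1E5, 39.5 ± 3.68 CPM with GW3965 and 25.7 ± 1.99 CPM with DMSO (1.79 ± 0.14 SE, edgeR adjusted p = 5.74e-06), and SRXN1, sulfiredoxin, was at 1.86 ± 0.16 SE (adjusted p = 8.16e-06). The 5 lower members, NQO1, PGD, TALDO1, TKT and ABCC2, include the pentose phosphate enzymes of the list. The core of the antioxidant response element, searched as TGACNNNGC on both strands, stood in 6 of 16 promoter windows of the list, and in 13.3% of all windows.

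Of 12 iron genes 8 were higher with 1E5 and none lower (median 0.92). FTL and FTH1, the ferritin chains, had 10207, 11068 and 11344 CPM and 3942, 3732 and 4179.7 CPM with 1E5, against 4142, 5096 and 4253 CPM and 1096, 1498 and 1205 CPM with GW3965 (1.27 ± 0.13 and 1.64 ± 0.23 SE, edgeR adjusted p = 2.44e-05 and 0.000187). Ferritin stores iron, and TFRC, which imports it, was also among the higher members. SAT1, which breaks down polyamines, had 1127, 959 and 1267 CPM with 1E5, against 101, 110.4 and 104 CPM with GW3965 and 70.02, 68.1 and 73.4 CPM with DMSO. SAT1 was 10.6-fold higher with 1E5 than with GW3965 (log2 3.41 ± 0.13 SE, edgeR adjusted p = 5.46e-08). It was among the largest of the 1E5 alone class, with ITPR1, an ER calcium channel (11.1-fold; adjusted p = 1.83e-05), MICALL1, a protein of endosome recycling (6.75-fold; adjusted p = 3.02e-06), and AL031587.5, a provisional locus just downstream of MICALL1 on the same strand, whose reads may belong to that gene (10.8-fold).

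Protein quality control did not move as 1 group. Of 20 genes of ER chaperones and the unfolded protein response 10 were higher with 1E5 and 6 lower (median 0.61). Of all genes 19.6% were higher and 20.4% lower. SEL1L, part of the ER degradation machinery, averaged 160.4 ± 10.1 CPM with 1E5, 34.8 ± 7.51 CPM with GW3965 and 29.1 ± 4.58 CPM with DMSO (2.19 ± 0.18 SE, edgeR adjusted p = 6.75e-06), and the co-chaperone gene DNAJB9 was at 2.20 ± 0.20 SE (adjusted p = 1.33e-05). PDIA4, a disulfide isomerase, averaged 136 ± 8.86 CPM with 1E5, 252 ± 3.05 CPM with GW3965 and 283 ± 18.9 CPM with DMSO (-0.89 ± 0.11 SE, edgeR adjusted p = 9.89e-05), with CALR, CRELD2, SDF2L1, PDIA6 and MANF also lower. Of 14 heat shock and metallothionein genes 1 (HSPH1) was higher and 6 lower (median -0.48); HSPB1, a small heat shock protein, averaged 222 ± 19.95 CPM with 1E5, 727 ± 50.1 CPM with GW3965 and 705 ± 30.02 CPM with DMSO (-1.71 ± 0.13 SE, edgeR adjusted p = 3.66e-06), and MT1E and HSPE1 were at -1.33 ± 0.14 and -0.87 ± 0.19 SE (adjusted p = 3.26e-05 and 0.00289). Of 23 proteasome subunits 11 were lower and none higher (median -0.44), led by PSMB3, PSMB7 and PSMA7 at -1.57 ± 0.16, -0.87 ± 0.13 and -0.88 ± 0.14 SE (adjusted p = 2e-05, 0.000323 and 0.000437).

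Lysosome and autophagy genes leaned upward, 12 of 21 higher and 2 (CTSB and NPC2) lower with 1E5 (median 0.44). WIPI1, which marks forming autophagosomes, had 168, 165 and 183 CPM with 1E5, against 32.1, 28.7 and 26.1 CPM with GW3965 and 19.5, 16.7 and 18.9 CPM with DMSO. WIPI1 was 5.91-fold higher with 1E5 than with GW3965 (log2 2.56 ± 0.13 SE, edgeR adjusted p = 5.57e-07). SQSTM1, the cargo receptor p62, had 1154, 2019 and 2549 CPM with 1E5, against 527, 505 and 474 CPM with GW3965 (1.93 ± 0.21 SE, edgeR adjusted p = 4.61e-05). MAP1LC3B, the autophagosome protein LC3B, averaged 438 ± 57.2 CPM with 1E5, 133 ± 32.8 CPM with GW3965 and 84.3 ± 13.4 CPM with DMSO (1.72 ± 0.23 SE, edgeR adjusted p = 0.000134).

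Energy metabolism stood on the lower side. All 13 mitochondrially encoded mRNAs were lower with 1E5 than with GW3965 (median -2.25). MT-CO3, a subunit of cytochrome oxidase, had 1099, 1468 and 2348 CPM with 1E5, against 10046, 8998 and 12338 CPM with GW3965 and 12538, 12769 and 14101 CPM with DMSO. MT-CO3 was 6.38-fold lower with 1E5 than with GW3965 (log2 -2.67 ± 0.22 SE, edgeR adjusted p = 9.56e-06), and MT-CO2 and MT-CYB were at -3.25 ± 0.27 and -2.25 ± 0.20 SE (adjusted p = 1.03e-05 and 1.28e-05). Of 23 nuclear genes of the respiratory chain 18 were lower and none higher (median -0.89). ATP5F1A, of the ATP synthase, averaged 239 ± 9.25 CPM with 1E5, 628 ± 66.7 CPM with GW3965 and 676 ± 57.4 CPM with DMSO (-1.39 ± 0.12 SE, edgeR adjusted p = 8.62e-06), and SDHA and NDUFV1 were at -1.92 ± 0.17 and -1.87 ± 0.22 SE (adjusted p = 1.2e-05 and 6.26e-05). Left out of totals and tests, the mitochondrial genes changed the count of all genes called to 6473.

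Glycolysis and hypoxia genes had 10 of 18 lower with 1E5, where 20.4% of all genes were, and 3 higher, a share no larger than the 19.6% of all genes (median -0.72). The lower ones were enzymes of glycolysis, and the higher ones HK2, NDRG1 and VEGFA. GAPDH averaged 4389.9 ± 409 CPM with 1E5, 12968 ± 501 CPM with GW3965 and 13339.5 ± 189.6 CPM with DMSO (-1.56 ± 0.15 SE, edgeR adjusted p = 1.45e-05), so this common loading control was not level here. HK2, which commits glucose to the cell, had 411, 370.1 and 262 CPM with 1E5, against 86.1, 80.2 and 52.2 CPM with GW3965 and 70.7, 56.6 and 37.4 CPM with DMSO. HK2 was 4.74-fold higher with 1E5 than with GW3965 (log2 2.25 ± 0.25 SE, edgeR adjusted p = 4.83e-05). NDRG1, a gene raised by hypoxia and iron loss, was 6.13-fold higher (2.61 ± 0.18 SE, edgeR adjusted p = 2.34e-06). Ribosomal protein genes had 10 of 20 lower and none higher (median -0.57), with RPL7A, RPS9 and RPL3 at -1.19 ± 0.15, -0.94 ± 0.14 and -1.14 ± 0.20 SE (adjusted p = 8.55e-05, 0.000312 and 0.000848).

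Growth factor signalling genes were mostly higher with 1E5. Of 23 immediate early and ERK feedback genes 12 were higher and 1 lower (median 0.93); JUNB, of the AP-1 complex, had 165, 174 and 314 CPM with 1E5, against 63.5, 48.9 and 68.7 CPM with GW3965 and 56.3, 36 and 55.4 CPM with DMSO (1.86 ± 0.25 SE, edgeR adjusted p = 0.000145). SPRY2, an inhibitor of ERK signalling, was the lower member (-0.75 ± 0.12 SE, edgeR adjusted p = 0.000313), while its relatives SPRY4, SPRED1 and SPRED2 were called higher. Of 10 EGF family ligands and receptors 6 were higher, 2 lower and 2 not called (median 1.11). Of all genes 19.6% were higher and 20.4% lower, so the lower share was near that of all genes. The higher members were the ligands AREG, EREG, BTC, HBEGF, EPGN and TGFA, the last at 0 in every GW3965 and DMSO library. Of them, AREG averaged 595 ± 104 CPM with 1E5, 305 ± 21.4 CPM with GW3965 and 208 ± 15.5 CPM with DMSO (0.96 ± 0.15 SE, edgeR adjusted p = 0.00029) and EREG was at 1.22 ± 0.19 SE (adjusted p = 0.000344); the lower ones were the receptors ERBB2 and ERBB3, the second at -2.04 ± 0.40 SE (adjusted p = 0.0017).

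Of 16 NF-kB and chemokine genes 8 were higher and 1 (CXCL1) lower with 1E5 (median 0.75). CXCL8, which attracts neutrophils, had 307, 195 and 236 CPM with 1E5, against 80.7, 68.7 and 71 CPM with GW3965 and 55.5, 38.7 and 39.7 CPM with DMSO (1.74 ± 0.23 SE, edgeR adjusted p = 0.000136), and BIRC3, an inhibitor of apoptosis, was at 1.89 ± 0.20 SE (adjusted p = 3.09e-05). IRF1, an interferon regulatory factor, averaged 51.3 ± 5.95 CPM with 1E5, 18.9 ± 3.79 CPM with GW3965 and 28.9 ± 4.03 CPM with DMSO, with DMSO between the ligands in every library (1.43 ± 0.22 SE, edgeR adjusted p = 0.000373). Interferon response genes had 4 of 18 lower and 1 higher (median -0.49), shares near or below those of all genes; IFIT1 and IFI6 were at -2.03 ± 0.26 and -1.91 ± 0.29 SE (edgeR adjusted p = 0.00013 and 0.000361).

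**Figure D4:**
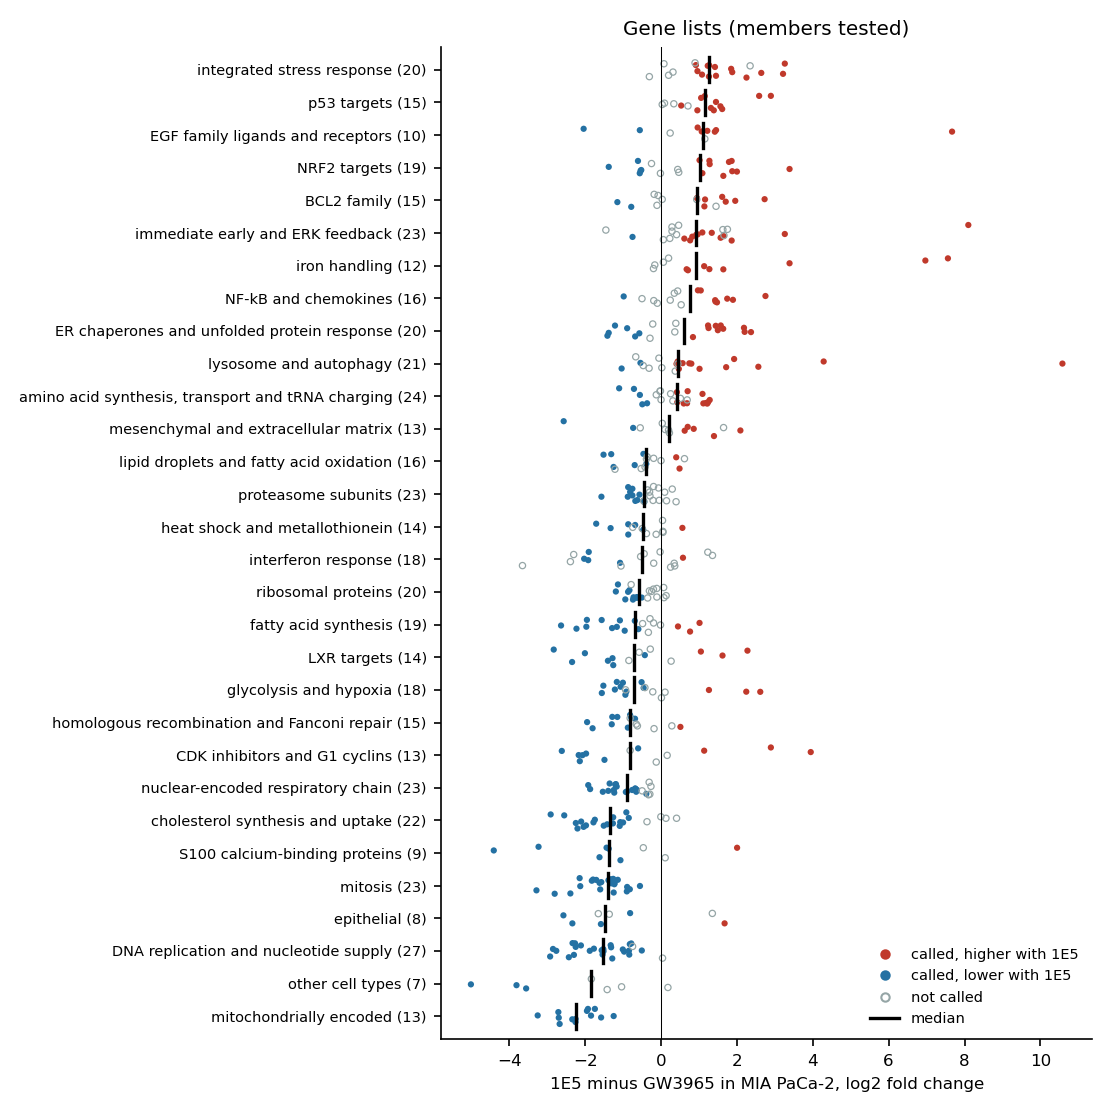
Each point is a tested member of 1 of 30 gene lists, placed by its log2 fold change of 1E5 against GW3965 in MIA PaCa-2 (x), filled where called (red higher, blue lower with 1E5) and open where not; the black bar is the list's median, lists are sorted by it and the number tested stands in brackets. Mitosis, DNA replication and mitochondrially encoded genes lie mostly left of 0, the integrated stress response and p53 targets mostly right of it; TGFA, EGR2, SLC40A1 and ATP6V0D2 had no count with GW3965, so their place is no bound.

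Epithelial and S100 genes were more often lower than higher with 1E5. Of 16 epithelial genes listed 8 were tested, and CDH1 and EPCAM were among those with too few counts to be tested. Of these 8 tested, 4 were lower and 1 (OCLN) higher (median -1.48). KRT19, a keratin of duct cells, had 45.6, 36.1 and 89 CPM with 1E5, against 343, 331 and 344 CPM with GW3965 and 330.1, 308 and 354 CPM with DMSO. KRT19 was 5.96-fold lower with 1E5 than with GW3965 (log2 -2.57 ± 0.26 SE, edgeR adjusted p = 2.44e-05), and KRT8 and MUC1 were at -1.59 ± 0.20 and -2.34 ± 0.39 SE (adjusted p = 0.000104 and 0.000659). Of 9 S100 genes 6 were lower and 1 (S100P) higher (median -1.38). S100A4, a calcium-binding protein linked to cell movement, had 8.26, 10.7 and 22.6 CPM with 1E5, against 253, 236 and 396 CPM with GW3965 and 297, 273 and 672 CPM with DMSO. S100A4 was 21.3-fold lower with 1E5 than with GW3965 (log2 -4.41 ± 0.39 SE, edgeR adjusted p = 1.83e-05), and S100A6 and S100A10 were at -1.62 ± 0.14 and -1.38 ± 0.15 SE (adjusted p = 1.03e-05 and 3.21e-05).

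Of 13 mesenchymal and matrix genes 5 were higher and 2 (VIM and TGFBI) lower (median 0.22), where 19.6% and 20.4% of all genes were. The integrin genes ITGAV and ITGB1 were at 1.39 ± 0.14 and 0.62 ± 0.12 SE and TGFBI, a secreted matrix protein, at -2.57 ± 0.26 (edgeR adjusted p = 1.83e-05, 0.00135 and 2.42e-05). Of 7 tested markers of other cell types 3 were lower and none higher (median -1.84). COL1A2, a chain of collagen I, had 9.0, 9.93 and 27.4 CPM with 1E5, against 199, 229 and 222 CPM with GW3965 and 246, 245 and 249.8 CPM with DMSO (-3.81 ± 0.35 SE, edgeR adjusted p = 1.9e-05). CDH5, an endothelial cadherin, had 0, 0 and 0.611 CPM with 1E5, against 4.04, 11.6 and 3.07 CPM with GW3965 and 24, 25.6 and 21.5 CPM with DMSO (edgeR adjusted p = 0.000657), and COL3A1 had 0.184, 0.152 and 0 CPM against 1.35, 1.16 and 1.92 CPM (adjusted p = 0.0108). The defining markers PTPRC, PECAM1, VWF, LUM and DCN were at 0 in every library beside them.

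Further genes with large falls in the 1E5 alone class, beside COL1A2 and KIF20A, were CORO1A, ADORA1 and SERPINF1. CORO1A, an actin-binding coronin, had 0.627, 0.493 and 0.878 CPM with 1E5, against 9.42, 9.7 and 13.8 CPM with GW3965 and 11.8, 13.3 and 12.5 CPM with DMSO. CORO1A was 16.1-fold lower with 1E5 than with GW3965 (log2 -4.01 ± 0.32 SE, edgeR adjusted p = 6.75e-06). ADORA1, an adenosine receptor, had 0.996, 1.33 and 1.6 CPM with 1E5, against 15.5, 19.4 and 15 CPM with GW3965 and 10.6, 25.6 and 16 CPM with DMSO (12.7-fold lower; edgeR adjusted p = 1.13e-05). SERPINF1, a secreted inhibitor of vessel growth, had 6.6, 7.73 and 10.2 CPM with 1E5, against 68.2, 35.4 and 121 CPM with GW3965 and 63.3, 70.9 and 106 CPM with DMSO (8.96-fold lower; edgeR adjusted p = 6.26e-05). For each of these the lowest GW3965 library stood well above the highest 1E5 library.

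The same ligand difference was then read in the other lines, each in its own fit. 1E5 against GW3965 gave 115 called genes of 18042 (0.637%) in BxPC-3, and 6439 of 18544 (34.7%) in PANC-1. In 1 fit of all 36 libraries the difference varied among the lines for 7943 of 22132 genes (35.9%; edgeR F test of the ligand by line interaction, adjusted p under 0.05). BxPC-3 was grown in another medium, so line and medium cannot be told apart there. Of the 2450 genes lower through 1E5 alone in MIA PaCa-2, 5 of 2402 tested were called lower and 4 higher in BxPC-3 (0.238% and 0.399% of all its genes were), and 741 of 2432 were called lower and 302 higher in PANC-1 (17.3% and 17.4% of all its genes). Of the 1939 higher genes, 1 of 1921 was called higher in BxPC-3 and 9 lower, and 584 of 1928 were called higher in PANC-1 and 245 lower.

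LXR and fatty acid genes were lower with 1E5 in BxPC-3 too, 5 of 14 and 5 of 19 of them by edgeR, where 0.238% of all genes were. SREBF1 was at -2.01 in MIA PaCa-2, -1.84 in BxPC-3 and -2.66 in PANC-1, and its difference among the lines did not pass (edgeR interaction, adjusted p = 0.208), nor did that of MYLIP (adjusted p = 0.208). FASN was at -2.64 in MIA PaCa-2, -1.62 in BxPC-3 and -3.49 in PANC-1, and the sizes differed (adjusted p = 6e-05). ABCA1 was at -2.83 in MIA PaCa-2, -3.15 in BxPC-3 and -4.36 in PANC-1 (adjusted p = 0.0128) and SCD at -1.97 in MIA PaCa-2, -2.05 in BxPC-3 and -3.93 in PANC-1 (adjusted p = 0.0147). FDPS was at -2.20 in MIA PaCa-2, -0.09 in BxPC-3 and -2.18 in PANC-1 (adjusted p = 2.55e-09), and was not called in BxPC-3. TP53INP2 had opposite signs, at 1.94 in MIA PaCa-2, -0.41 in BxPC-3 and -0.78 in PANC-1 (adjusted p = 3.57e-08). The opposed genes, FASN, SREBF1, FDPS and TP53INP2 among them, were picked by their differences in these MIA PaCa-2 libraries. That choice made a difference from the other lines likelier. For mitosis genes the median was -1.39 in MIA PaCa-2, 0.25 in BxPC-3 and -1.59 in PANC-1, and 22 of 23 were called lower in PANC-1. For the integrated stress response the medians were 1.26, -0.52 and 1.14 in the same lines, and 14 of 19 were called higher in PANC-1. Interferon response genes had medians of -0.49, 1.03 and -0.62, with 8 of 18 called higher in BxPC-3. Ribosomal protein genes went the other way in PANC-1, 19 of 20 higher with 1E5 and none lower, and in the joint fit all 20 differed among the lines.

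The genes that differed most among the lines by the smallest p were SEMA3A, ACAT2, GAS5 and WIPI1. SEMA3A, a secreted guidance factor, was at -0.44 in MIA PaCa-2, 0.53 in BxPC-3 and -3.31 in PANC-1 (edgeR interaction, adjusted p = 6.58e-15). ACAT2, the cytosolic thiolase that opens sterol synthesis, was at -2.31 in MIA PaCa-2, 0.46 in BxPC-3 and -3.20 in PANC-1 (adjusted p = 3.59e-10), the MIA PaCa-2 and PANC-1 values being far from that of BxPC-3. GAS5, a noncoding RNA that hosts small nucleolar RNAs, was at 1.40 in MIA PaCa-2, -0.39 in BxPC-3 and 3.19 in PANC-1 (adjusted p = 4.88e-10), and WIPI1 at 2.56 in MIA PaCa-2, -0.39 in BxPC-3 and 0.63 in PANC-1 (adjusted p = 1.05e-09).

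**Figure D5:**
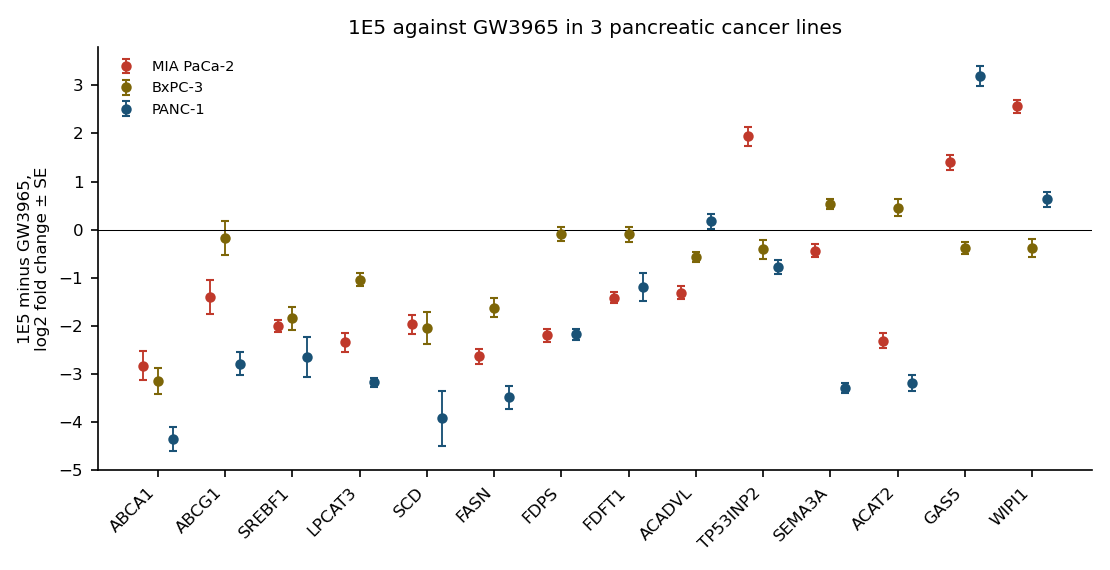
Log2 fold change of 1E5 against GW3965 (y; points, with bars of ± 1 SE from the edgeR fit of that line, n = 3 libraries a group) for 14 genes (x) in MIA PaCa-2, BxPC-3 and PANC-1. ABCA1, SREBF1, LPCAT3, SCD and FASN lie below 0 in all lines, FDPS, FDFT1 and ACAT2 by more than 1 SE only in MIA PaCa-2 and PANC-1, and TP53INP2 is above 0 in MIA PaCa-2 alone.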

How the data were processed

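Whole-transcriptome RNA of the 36 libraries was deposited by the authors as 1 table of raw read counts per gene. The submitters' processing notes name HISAT2 2.0.2, StringTie 1.3.1c, Trim Galore 0.4.4 and SAMtools 1.3 with GRCh38, without order; how reads were assigned to genes is not given in the sources used here. Of 58658 lines, 415 that name a transcript or an unplaced locus were left out. Coordinates and types are from GENCODE release 29.

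Counts of the 12 MIA PaCa-2 libraries (1E5, GW3965, DMSO and the third compound) were fitted in edgeR 4.0.16 (R 4.3.3) with TMM scaling, filterByExpr at a minimum count of 10, 1 mean per group and Benjamini-Hochberg adjustment, two-sided. Median SE was 0.26 (log2). Replicates of 1 group differed by more than counting noise (chi-square per degree of freedom 8.10 to 47.2). SEs and 95% intervals are Wald values on the quasi-likelihood scale. The fit was tested on simulated data. Lines were compared by an F test of the ligand by line interaction. Alternatives used limma 3.58.1 voom and DESeq2 1.42.0, RLE scaling, no filter, thinning, a replicate block, other sets of libraries and each replicate left out.

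Members, lists and tests were chosen with earlier results of these data known. By rule the text names LXR genes, up to 6 opposed genes per direction, up to 5 per direction of each other class (no overlap between the ligands, mean of at least 2 CPM), up to 3 called members of each list by smallest p and the 4 smallest interaction p values. Other genes, such as the few members on a list's smaller side, were named after their values were seen. A few genes are not reported here.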

Additional observations from a re-analysis of the deposited data

Results flagged for a closer look

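The 1E5 against GW3965 difference was set side by side in the 3 lines for the LXR genes and the opposed genes. The 4 genes with the smallest interaction p were added. They were picked by that p, so their passing the same test was fixed in advance. The opposed genes were picked by their differences in these MIA PaCa-2 libraries, which the interaction also uses. That choice made a difference from the other lines likelier. With the 4 added genes, 14 differed among the lines by edgeR's interaction test, where 35.9% of all genes did. SREBF1, MYLIP and NR1H3 were the genes set side by side that did not pass. Since most of the genes were picked as above, the 14 cannot be read against the share of all genes. Among LXR targets, ABCA1 was at -2.83 in MIA PaCa-2, -3.15 in BxPC-3 and -4.36 in PANC-1 (log2; adjusted p = 0.0128). ABCG1 was at -1.40 in MIA PaCa-2, -0.17 in BxPC-3 and -2.79 in PANC-1 (adjusted p = 0.000598), and LPCAT3 at -2.35 in MIA PaCa-2, -1.05 in BxPC-3 and -3.18 in PANC-1 (adjusted p = 1.48e-07). SCD was at -1.97 in MIA PaCa-2, -2.05 in BxPC-3 and -3.93 in PANC-1 (adjusted p = 0.0147), and FASN at -2.64 in MIA PaCa-2, -1.62 in BxPC-3 and -3.49 in PANC-1 (adjusted p = 6e-05). ABCA1, LPCAT3, SCD and FASN were below 0 in every line, with sizes that differed, while ABCG1 was not called in BxPC-3 (± 0.36 SE, edgeR adjusted p = 0.911). NR1H2 was at 0.61 in MIA PaCa-2, -0.20 in BxPC-3 and 0.43 in PANC-1 (adjusted p = 0.00168).

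Among opposed genes, FDPS was at -2.20 in MIA PaCa-2, -0.09 in BxPC-3 and -2.18 in PANC-1 (adjusted p = 2.55e-09) and FDFT1 at -1.42 in MIA PaCa-2, -0.10 in BxPC-3 and -1.19 in PANC-1 (adjusted p = 0.00124), both near 0 in BxPC-3. ACADVL was at -1.31 in MIA PaCa-2, -0.57 in BxPC-3 and 0.17 in PANC-1 (adjusted p = 2.69e-06), and TP53INP2 at 1.94 in MIA PaCa-2, -0.41 in BxPC-3 and -0.78 in PANC-1 (adjusted p = 3.57e-08). The smallest p values were those of SEMA3A at -0.44 in MIA PaCa-2, 0.53 in BxPC-3 and -3.31 in PANC-1 (adjusted p = 6.58e-15), ACAT2 at -2.31 in MIA PaCa-2, 0.46 in BxPC-3 and -3.20 in PANC-1 (adjusted p = 3.59e-10), GAS5 at 1.40 in MIA PaCa-2, -0.39 in BxPC-3 and 3.19 in PANC-1 (adjusted p = 4.88e-10) and WIPI1 at 2.56 in MIA PaCa-2, -0.39 in BxPC-3 and 0.63 in PANC-1 (adjusted p = 1.05e-09). In MIA PaCa-2 itself the call of SEMA3A between the ligands was lost in 6 alternatives (adjusted p = 0.0537 to 0.141).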

How the results depend on the processing

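GW3965 against DMSO, on which the small classes rest, gave 85 calls, 65 in libraries thinned to the shallowest and 16 to 85 with 1 replicate left out. Genes called between 1E5 and GW3965 numbered 5116 to 7813 over the alternatives and 5116 to 6720 with 1 replicate left out; 49.0% of the calls were higher with 1E5, and 56.0% without the filter on low counts, where the median of all genes was 0.24. Genes opposed by the ligands numbered 14 by DESeq2, 2 by limma-voom, 2 in thinned libraries, 10 in 1 fit of all 36 libraries, 2 without both shallowest libraries and 1 to 5 with 1 replicate left out. Those with DMSO between the ligands in every library numbered 627 without both shallowest libraries and 140 to 527 with 1 replicate left out. Genes moved by 1E5 alone numbered 2108 with the interval held within 1.5-fold, and 3527 to 4011 with 1 replicate left out. Genes moved by GW3965 alone numbered 19 by DESeq2, 4 by limma-voom, 19 in 1 fit of all libraries, 6 without both shallowest libraries, 4 within 1.5-fold and 2 to 8 with 1 replicate left out. Genes moved the same way numbered 143 by DESeq2, 8 by limma-voom, 96 in 1 fit of all libraries and 4 to 49 with 1 replicate left out. GW3965 against DMSO gave 263 calls by DESeq2 and 18 by limma-voom, so these classes follow the tool; why the tools differed was not tested. The interaction was called for 7150 to 8574 genes. For the 118 genes named by rule no fit reversed the direction, and 20 of 2238 fits, in 5 genes, lost the call; genes named outside the rule were not run. The alternative without both shallowest libraries (replicates 3 of GW3965 and DMSO) was chosen after seeing the data.

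Same-numbered 1E5 and GW3965 libraries deviated together only weakly (r = 0.0479 to 0.0907 over genes, other pairs -0.0691 to -0.00479). GW3965 and DMSO libraries were at r = 0.0431 to 0.204 (other pairs -0.162 to 0.00101). For 1E5 and DMSO libraries r was 0.0164 to 0.0776 (other pairs -0.0674 to 0.00942). Every same-numbered pair thus lay above every other pair in each of these comparisons. Not every pair passed the cut-off of 0.1 used here, so the main fit did not take the numbers as pairs. With the replicate number as a block 6763 genes were called, 4 opposed, 4668 moved by 1E5 alone, 6 by GW3965 alone and 35 the same way, and the interaction was called for 8574.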
